A study of Mus musculus with 80 samples.

Results

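The actin genes of the mouse were examined for RXR-associated sequence in liver. The family comprised Actb and Actg1, which encode the cytoplasmic β- and γ-actins, and Acta1, Actc1, Acta2 and Actg2, which encode the skeletal, cardiac, vascular smooth muscle and enteric smooth muscle actins. They were 6 of the 21911 protein-coding genes on chromosomes 1 to 19, X and Y, and were chosen by earlier results of these data, namely the fold enrichment of intervals over them and the number of livers with such an interval in each group. Every MACS2 interval (a stretch of genome called as enriched over input DNA) that overlapped the body of a member by at least 1 bp was taken, which gave 478 of 589904 intervals. These fell into 33 of the 215015 sites formed by merging overlapping intervals of all libraries.

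RXR chromatin immunoprecipitation with sequencing (RXR ChIP-Seq) had been performed on livers of male wildtype (WT) C57BL6/J mice and of liver-specific PPARγ knockout (KO) mice. For 12 weeks mice of either genotype ate a low-fat control diet (groups called Control) or a high-fat diet (HFD), each also given with added pioglitazone (Pio and HFD-Pio), and livers were taken at 5 months of age, 5 in each of the 8 groups. The 40 ChIP libraries were each compared by the authors with 1 of 40 input libraries, which completed the 80 samples. KO mice carried loxP-flanked PPARγ alleles and Cre driven by the albumin promoter, so that the gene was removed in hepatocytes, whereas the WT mice were purchased C57BL6/J animals and not floxed littermates. The labels named an RXR antibody for 25 ChIP libraries, and for the 15 of KO Pio, KO HFD and KO HFD-Pio they named none, although their titles gave RXR. Here the 10 WT livers without pioglitazone (Control and HFD) are called untreated WT, and the 10 of WT Pio and WT HFD-Pio are called WT with Pio.

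Actins are among the most conserved proteins of animals, and polymerize from monomers into the filaments that give cells their shape, support transport and, with myosin, generate contraction. The cytoplasmic isoforms are made in nearly all cells, while muscle isoforms are largely restricted to striated or smooth muscle. In liver, Acta2 is used as a marker of vascular smooth muscle and of activated stellate cells. RXR is a nuclear receptor that pairs with PPARγ, the target of pioglitazone, and such pairs bind direct repeats of AGGTCA-like motifs, most often in promoters, introns and intergenic DNA.

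Libraries differed in ways that touched all values given here. WT libraries kept 2.04 to 4.26 Mtags (megatags, at 1 tag per position) and were called at p 0.001, while KO libraries kept 0.628 to 1.06 Mtags and were called at q 0.05, so that genotype, depth and cutoff cannot be told apart and WT and KO values were set side by side without a test. The share of all peaks with a summit in an exon of a protein-coding gene was 1.08 to 6.17% in WT Control, 1.43 to 1.90% in WT HFD, 16.7 to 34.1% in WT Pio, 8.45 to 35.6% in WT HFD-Pio and 64.3 to 87.0% in the KO livers. In 6 WT libraries (Pio 2, 3 and 5, and HFD-Pio 1, 4 and 5) MACS2 had estimated a fragment length of 45 to 48 bp, about the length of the tags themselves (48 or 49 bp), and these are called short-fragment libraries. No pair of peak lists was identical.

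All 6 genes lie on the minus strand of mm10 (GRCm38). Actb occupies chr5:142903115-142906754, Actg1 chr11:120345690-120348542, Acta1 chr8:123891769-123894751, Actc1 chr2:114047282-114053548, Acta2 chr19:34241090-34255590 and Actg2 chr6:83512905-83536265. Their coding sequences were 1125 bp (Actb and Actg1), 1128 bp (Actg2) or 1131 bp long, and over the 15 pairs between 81.7% (Actg1 and Acta2) and 88.6% (Actb and Actg1) of the aligned bases were the same. Most strongest summits lay in coding exons, with others in 3′ UTRs and introns. As examples 2 coding stretches are shown, each at a summit shared by many livers, in which some other members differ at few bases. Each is 30 bases of exon from the reference, read 5′ to 3′ on the coding strand, and capitals mark the bases that differ from the first sequence of its set.

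The first stretch lay at the median summit of Actg1 exon 5 in 18 KO livers, the only exon of Actg1 with a summit in the KO group, and differed from Actc1 at 3 bases and from Actb at 4.
Actg1 exon 5, chr11:120346730-120346759: gatatccgcaaagacctgtatgccaataca
Actc1, chr2:114048216-114048245: gatatccgcaaagacctgtatgccaaCaAT
Actb, chr5:142904160-142904189: gaCatccgTaaagacctCtatgccaaCaca

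The second lay at the median summit of Actc1 exon 3 in 7 WT livers with Pio, and differed from Actb at 2 bases and from Acta2 at 3.
Actc1 exon 3, chr2:114050374-114050403: cccaaggccaaccgtgagaagatgacccag
Actb, chr5:142905237-142905266: ccTaaggccaaccgtgaAaagatgacccag
Acta2, chr19:34248424-34248453: ccTaaggccaaccgGgagaaAatgacccag

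Intervals over the actin genes were nearly absent from untreated WT livers and present in every other liver. In 9 of the 10 untreated WT livers no member was called, and in the remaining liver, WT Control 4, Acta2 and Actg2 were called through intronic intervals, at fold enrichments of 4.36 and 5.09. All 6 members were called in 7 of the 10 WT livers with Pio and 5 in the other 3. In KO livers 6 members were called in 7, 5 in 12 and 4 in 1 of the 20, with or without pioglitazone and on either diet. Called in at least 5 of the 10 WT livers with Pio were 6 of the 6 members and 12.9% of all genes. In at least 10 of the 20 KO livers they were 5 of the 6 and 27.1%. By the rule of at least 3 of 5 livers against 0 of 5, Actb, Actg1, Acta1 and Actc1 were gained in WT Pio against WT Control, where 7.5% of all genes (1643) were gained. All 6 were gained in WT HFD-Pio against WT HFD, where 7.67% of all genes (1681) were gained. Nearest the rule, Actc1 was called in 3 of 5 WT HFD-Pio livers and so counted as gained, while Acta2 and Actg2 were called in 5 of 5 WT Pio livers but did not count, because WT Control 4 had an interval in both; without that liver all 6 were gained. Without the short-fragment libraries, Actb, Actg1 and Acta1 were called in both remaining WT Pio livers and in no WT Control liver, among 308 such genes of the 21911. These counts are a description, since the family was picked with these contrasts in view.

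Actb and Actg1 had no interval in any untreated WT liver. Where both were called, Actb was above Actg1 in KO livers and the 2 genes had similar ranges in WT livers with Pio. For Actb, the fold enrichment (ChIP over local input at the summit, largest interval of the gene) in WT Pio livers 1 to 5 was 12.4, 13.6, 28.4, 3.02 and 18.1, and in WT HFD-Pio livers 24.6, 3.64, 4.73, 27.4 and 10.1. It was 31.1, 53.9, 56.7, 51.8 and 64.7 in KO Control, 48.5, 48.2, 36.2, 71.8 and 54.9 in KO Pio, 57.9, 44.8, 49.6, 50.1 and 40.05 in KO HFD, and 40.2, 46.0, 64.8, 61.3 and 50.5 in KO HFD-Pio. Every KO liver was thus above every WT liver, and no KO group was separated from another. How many of all genes had their KO livers above their WT livers was not counted, and depth and cutoff differed with genotype. Group means were 15.1 ± 9.23 (SD, n = 5) in WT Pio, 14.1 ± 11.2 in WT HFD-Pio, and from 48.5 ± 6.63 (KO HFD) to 52.6 ± 10.3 (KO HFD-Pio) among the KO groups.

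Actg1, the other gene of this class, had its highest values in WT. Its fold enrichment was 18.4, 16.2, 27.7, 5.58 and 14.4 in WT Pio and 17.9, 5.98, 5.55, 24.4 and 7.82 in WT HFD-Pio. In KO Control it was 7.21, 4.56, 6.13, 6.97 and 8.79, and in KO Pio 8.74, 8.20, 6.34, 9.12 and 7.21. In KO HFD the 4 livers called gave 6.10, 3.79, 6.80 and 4.98, and the 4 called in KO HFD-Pio gave 5.81, 5.17, 7.52 and 5.52. The medians were 15.3 in WT with Pio and 6.57 in the 18 KO livers called, although the ranges overlapped. Within WT with Pio the median was 17.1 in the 6 short-fragment libraries. In the 4 other libraries it was 5.78 (5.55 to 18.4), below the KO median. In KO livers the median of Actb was 50.3, and Actg1 stayed below Actb in each liver in which both were called.

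**Figure D1:**
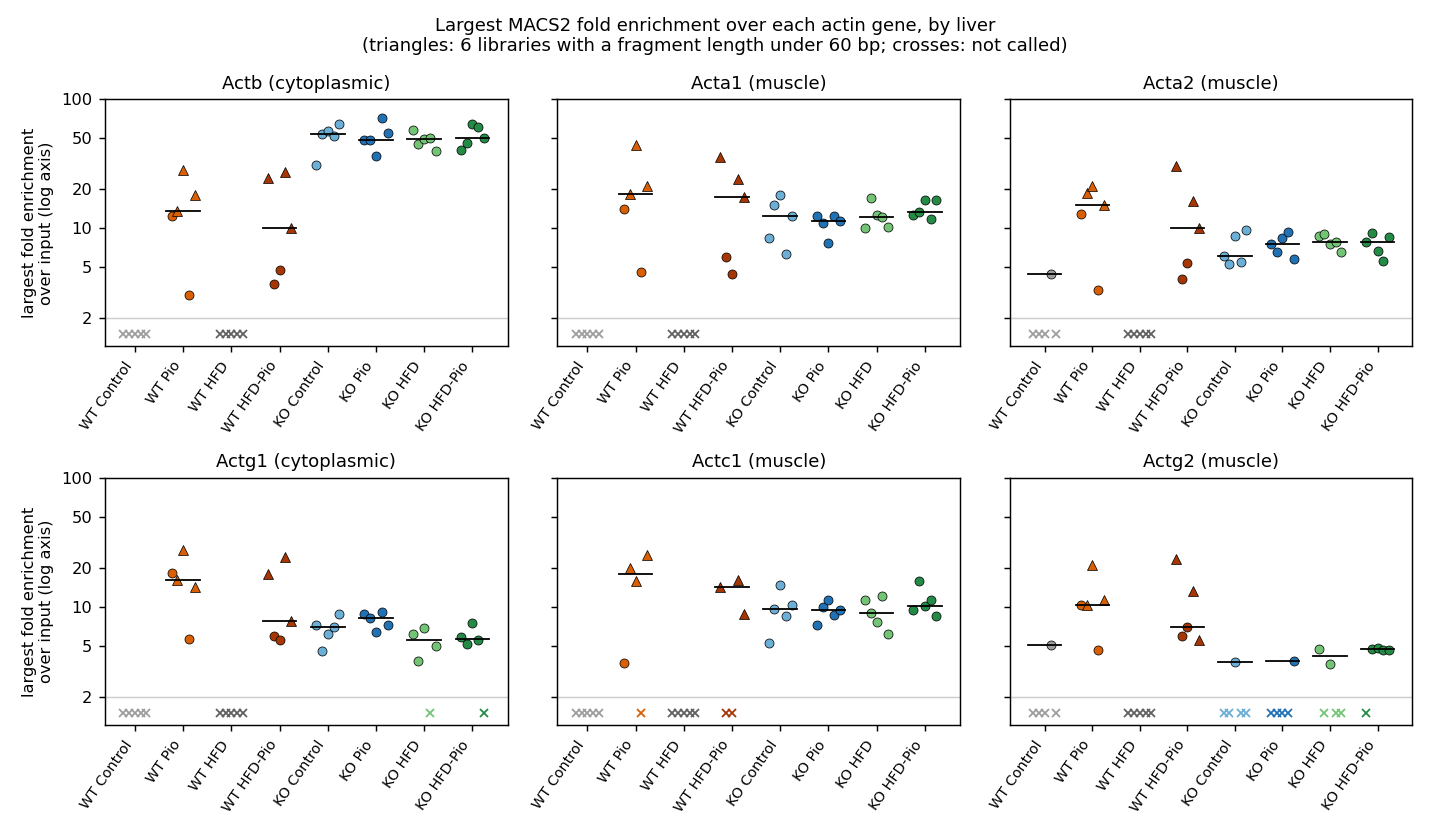
Largest MACS2 fold enrichment of each actin gene (log axis) in every liver of the 8 groups, with triangles for the 6 short-fragment libraries, circles for other livers with a call, crosses for livers without one and lines for medians of called livers. Actb lies at 31.1 to 71.8 in KO livers and at 3.02 to 28.4 in WT with Pio, while Actg2 was called in only 8 of 20 KO livers.

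Among the muscle genes, Acta1, the skeletal isoform, was called in all WT livers with Pio and all KO livers. It measured 13.95, 18.6, 44.6, 4.57 and 21.2 in WT Pio and 35.9, 5.97, 4.38, 23.9 and 17.5 in WT HFD-Pio. The 20 KO livers ran from 6.25 to 17.995 with a median of 12.4, inside the WT range. KO group medians of Acta1 thus lay within the spread of both WT groups.

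Actc1, the cardiac isoform, was called in fewer WT livers. It measured 3.65, 19.9, 15.8 and 25.3 in WT Pio livers 1, 2, 3 and 5, and 14.3, 16.1 and 8.74 in WT HFD-Pio livers 1, 4 and 5. The 6 short-fragment libraries were among these 7, and of the other 4 WT libraries with Pio only WT Pio 1 had an interval. All 20 KO livers had one, at 5.202 to 16.03 with a median of 9.53.

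Acta2, of vascular smooth muscle, and Actg2, of enteric smooth muscle, parted in the KO livers. Acta2 measured 12.9, 18.7, 21.2, 3.29 and 15.02 in WT Pio, 30.6, 3.98, 5.37, 16.2 and 10.1 in WT HFD-Pio, and 5.21 to 9.62 with a median of 7.67 in KO. Actg2 measured 10.3, 10.3, 21.3, 4.63 and 11.3 in WT Pio and 23.4, 5.98, 7.0005, 13.3 and 5.49 in WT HFD-Pio. In KO livers Actg2 was called in 1 of 5 Control, 1 of 5 Pio, 2 of 5 HFD and 4 of 5 HFD-Pio livers, at 3.59 to 4.77 against 4.63 to 23.4 in WT with Pio.

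The balance between the classes was measured as the ratio of the largest muscle value to the largest cytoplasmic value in each liver. The muscle value is the largest of 4 genes and the cytoplasmic value the largest of 2, which by itself favours a higher ratio. In WT with Pio it ran from 0.758 to 1.73 with a median of 1.24, and the muscle value was the higher in 6 livers, equal in 1 and lower in 3. In KO livers it ran from 0.164 to 0.383 with a median of 0.255, and the muscle value was lower in 20 of 20. The cytoplasmic value in KO was that of Actb in every liver, so this is a contrast with Actb and not with both cytoplasmic genes. Against Actg1 alone the largest muscle value was the higher in 18 of 18 KO livers, at ratios of 1.17 to 4.53 with a median of 1.87. The class ratios of WT with Pio and KO did not overlap, in libraries that also differed in depth and cutoff. Median class ratios were 1.23 in WT Pio and 1.26 in WT HFD-Pio, and 0.226 to 0.313 in the 4 KO groups.

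**Figure D2:**
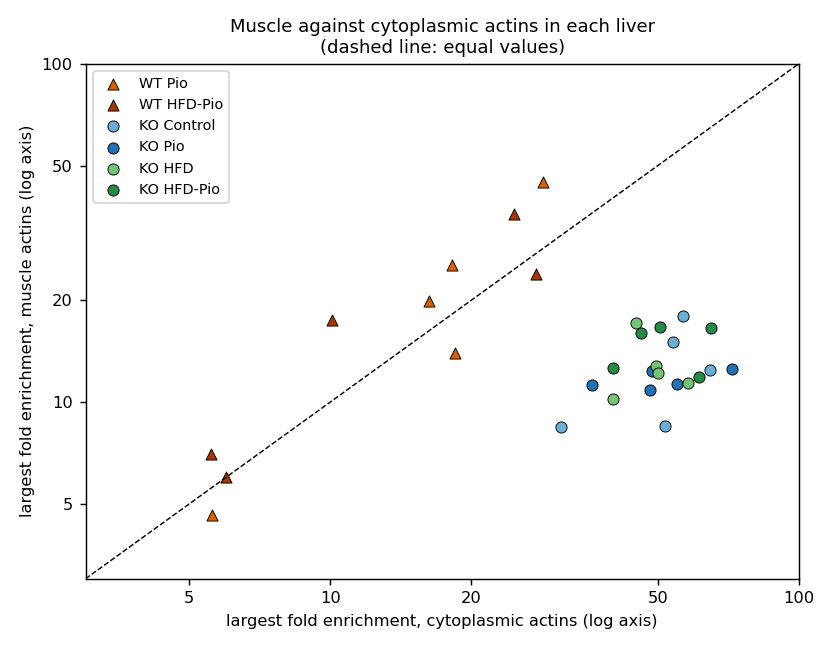
Largest fold enrichment among the muscle actins against that among the cytoplasmic actins, 1 point per liver (triangles WT with Pio, circles KO), on log axes, with a dashed line of equal values. The KO livers, whose cytoplasmic value is that of Actb throughout, all lie below the line at ratios of 0.164 to 0.383, and WT livers with Pio lie on both sides of it at 0.758 to 1.73.

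Within WT with Pio, medians were higher in the short-fragment libraries, although single livers overlapped. Medians in the 6 short-fragment and the 4 other libraries were 21.4 and 4.18 for Actb, 17.1 and 5.78 for Actg1, 22.6 and 5.27 for Acta1, 17.5 and 4.68 for Acta2, and 12.3 and 6.49 for Actg2. Actc1 had a median of 15.95 in the 6 and was called in 1 of the other 4, at 3.65. WT Pio 1, which was not a short-fragment library, lay inside the short-fragment range for Actb (12.4), Actg1 (18.4), Acta2 (12.9) and Actg2 (10.3), and below it for Acta1 (13.95) and Actc1. The short-fragment libraries held 206 intervals over the 6 genes (median width 102 bp), and 178 of them lay wholly in exons. The other 4 held 54 with a median width of 345 bp, 7 of them wholly in exons, and the 20 KO libraries held 216 with a median width of 237.5 bp, 34 wholly in exons. The part of fragment length in these values was not tested.

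Most summits lay in exons, while many intervals also reached into introns. Only the strongest summit of each interval was counted here. Of the 478 summits, 411 were in coding sequence, 32 in a 3′ UTR, none in a 5′ UTR and 35 in an intron, so that 92.7% were exonic. Both intervals of untreated WT were intronic. In WT with Pio 231 of 260 summits were coding, 21 were in a 3′ UTR and 8 in an intron, and in KO 180 of 216 were coding, 11 were in a 3′ UTR and 25 in an intron. Exonic summits thus made up 96.9% and 88.4%, against 8.45 to 35.6% and 64.3 to 87.0% of all peaks in single livers. All peaks include those outside genes, whereas actin intervals were taken only where they overlapped a gene body, which by itself favours exonic summits. Exons of the principal transcript made up 1952 of 2853 bp in Actg1 but 1333 of 23361 bp in Actg2. The exonic share among peaks within all gene bodies was not counted. For Actb in KO, 19 of 59 summits were intronic. Its intervals there had a median of 63.3% of their length in exons, and 0 lay wholly in exons.

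The exons with summits differed between the WT and KO livers for some genes. For these counts all summits of an interval were used, and not only the strongest (219 summits in 113 intervals for Actb). WT counts pool the short-fragment and other libraries, which held 7.67 and 2.0 intervals per liver over Actg1 and 7.0 and 3.5 over Actg2. In Actb, summits occurred in exons 3, 4 and 6 of 20 KO livers each and in exon 5 of 19, against 8, 10, 10 and 4 WT livers with Pio. In Actg1, exon 6 held a summit in 10 WT livers with Pio and 0 KO livers, exons 3 and 4 in 8 and 0 each, and exon 5 in 6 and 18. Exon 3 of Acta1 was the shared position of this gene, with a summit in 10 WT and 20 KO livers, and exon 7 had one in 8 and 19. In Acta2, exon 8 led in both, with 9 WT and 20 KO livers. Actg2 had summits in exons 2, 3, 4, 6, 7, 8 and 9 in 7 to 9 WT livers with Pio, but in at most 6 KO livers in any exon.

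The share of the spliced transcript that lay under an interval in at least 5 of 10 WT livers with Pio was 49.5% for Actb, 33.2% for Actg1, 28.4% for Acta1, 7.72% for Actc1, 33.5% for Acta2 and 66.1% for Actg2. In at least 10 of 20 KO livers it was 97.2% for Actb, 9.18% for Actg1, 29.8% for Acta1, 15.4% for Actc1, 16.02% for Acta2 and 0% for Actg2. Actb was thus covered almost end to end in KO livers and Actg2 in WT livers with Pio was the most covered muscle gene.

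**Figure D3:**
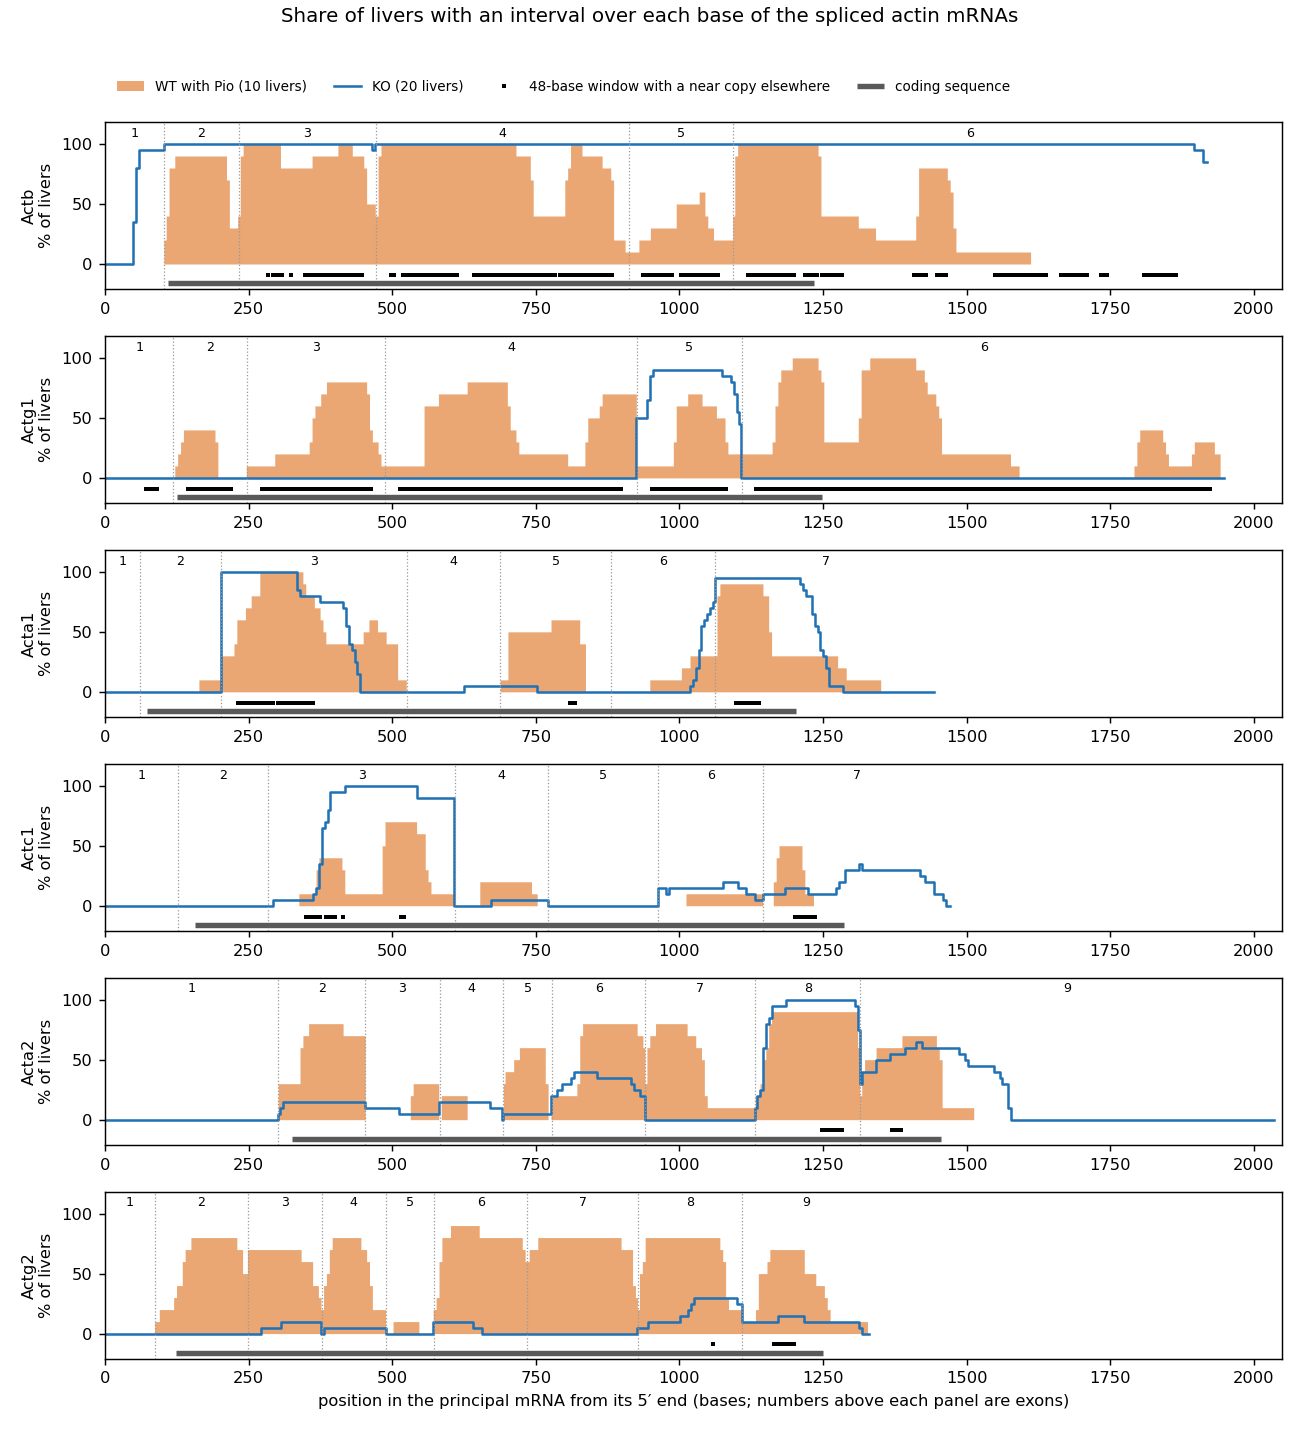
Percentage of livers with an interval over each base of the spliced transcript (bases from its 5′ end) for the 6 actin genes, in 10 WT livers with Pio (orange area) and 20 KO livers (blue line), with dotted exon borders, black marks for 48-base windows with a near copy elsewhere and grey bars for coding sequence. Actb is covered over 97.2% of its length in at least 10 KO livers, and Actg1 over 9.18%, in exon 5.

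A further interval in Actb, apart from those over exons 2 and 3 and exons 4 to 6, lay across the end of exon 1 and the start of intron 1 (chr5:142906530-142906705 at its widest). It was present in 19 of 20 KO livers and in no WT liver, at a fold enrichment of 5.09 to 10.9 with a median of 7.38, and 27.4 to 38.7% of its length was exonic. In 4 KO livers the end of this same interval reached the window from 250 bp before to 50 bp after the annotated start of Actb, by 1 bp and within exon 1. The matching windows of the other 5 members held no interval.

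Many exonic stretches have near copies elsewhere in the genome. Windows of 48 bases, about the tag length (48 or 49 bp), were taken within single exons. A copy with at most 2 mismatches lay elsewhere for 97.4% of windows in Actg1, 62.8% in Actb, 16.4% in Acta1, 9.18% in Actc1, 4.84% in Actg2 and 3.72% in Acta2. At the summits the median share was 100% for Actg1 in both WT with Pio and KO, 71.9% and 51.0% for Actb, and 83.3% and 89.6% for Acta1, against 16.4% over all Acta1 exons. It was 20.8% and 0% for Actc1 and 0% for Acta2 and Actg2. A median of 0% does not mean that no summit was copied. Of the Acta2 intervals with an exonic summit, 29 of 48 in KO and 40 of 49 in WT with Pio had no copied window. At Acta2 exon 8 summits the closest window differed from Actg1 at a median of 0 bases and from Actb at 1, in both. How the aligner placed reads with several matches is not given in the sources used here. The part of such copies in the values of any member was thus not tested.

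The copies themselves lay at 37 loci outside the members, 27 of them in annotated pseudogenes, with 13 most like Actb and 24 most like Actg1. Intervals covered 0 of these loci in untreated WT, 26 in at least 1 WT liver with Pio and 10 in at least 1 KO liver. The pseudogene Gm12715 (chr4:103563322-103565229, an Actg1 copy) had an interval in 10 of 10 WT livers with Pio and in 20 of 20 KO livers, at median fold enrichments of 13.8 and 13.1. Gm15725 (chr16:37882694-37884233, an Actb copy) had one in 10 and 20 livers, at 11.8 and 17.6. No untreated WT liver had an interval at either.

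Sequence around the summits was searched for the motif AGGTCA on both strands, within 100 bp of the strongest summit of each site. It was found at 4 of the 33 actin sites (12.1%), at 10.2% of all 215015 sites and at 12.6% of the 65361 sites with an exonic summit. The direct repeat of this motif spaced by 1 base, with at most 2 mismatches, was found at 0 of the 33, at 2.25% of all sites and at 2.56% of exonic sites. These matches describe letters only and say nothing of whether RXR was bound.

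Within genotypes, other contrasts moved no member across the call rule. Members gained or lost numbered 0 in WT HFD against WT Control (0.867% of all genes), WT HFD-Pio against WT Pio (0.589%), KO Pio against KO Control (0.999%), KO HFD-Pio against KO HFD (0.771%), KO HFD against KO Control (0.698%) and KO HFD-Pio against KO Pio (0.817%). Actg2 went from 1 of 5 KO Pio livers to 4 of 5 KO HFD-Pio livers, and was gained by the rule only once KO Pio replicate 5 was left out.

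Strength was tested with limma on the log2 fold enrichment of genes called in all 10 livers of a contrast, centred on each liver's median. No member passed an adjusted p of 0.05 with a change of at least 2-fold in 22 tests (limma, Benjamini-Hochberg over all genes tested), and 1 of the 22 had an unadjusted p under 0.05. The family was chosen by fold enrichments in these same groups, so these tests describe the members and are no independent evidence about them. The share of all genes called was 0.181% (4 of 2204) in KO Pio against KO Control, 0% (of 2390) in KO HFD-Pio against KO HFD, 0% (of 1935) in KO HFD against KO Control, 0% (of 3143) in KO HFD-Pio against KO Pio and 0% (of 179) in WT HFD-Pio against WT Pio. At an unadjusted p under 0.05 the same limma fits held 142, 99, 80, 141 and 1 genes.

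With pioglitazone on control diet in KO livers, the log2 change was -0.08 for Actb, 0.16 for Actg1, -0.15 for Acta1, -0.09 for Actc1 and 0.02 for Acta2. On the high-fat diet it was 0.16 for Actb, 0.25 for Acta1, 0.32 for Actc1 and -0.03 for Acta2. With the high-fat diet alone it was -0.11 for Actb, 0.08 for Acta1, -0.08 for Actc1 and 0.16 for Acta2. The largest change was that of Acta1 in KO HFD-Pio against KO Pio, at 0.49 (SE 0.16, limma adjusted p = 0.997). The 95% intervals of all 22 changes lay between -0.74 and 0.82, short of a 2-fold change either way. They were not adjusted for the number of tests, and the family was chosen by these same fold enrichments, so they are a description only. They also cover only members called in every liver of a contrast. Actg2 was thus not tested in any KO contrast, nor Actc1 in WT HFD-Pio against WT Pio. Among the KO contrasts, Actg1 was tested only in KO Pio against KO Control.

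Across the 40 livers, the genes whose pattern of fold enrichment was most like that of a member differed from member to member. The measure of likeness was Pearson's r of log2(1 + largest fold enrichment), over livers that share depth, cutoff and exonic share within a group, and is given as a description. For Actb the closest were Cfl1, which encodes the actin-severing protein cofilin (r = 0.989, with Snx32 sharing its interval), and Fth1, of the ferritin heavy chain (0.986). For Actg1 they included Cap1 (0.898) and Tmem59 (0.896), and for Acta1 Skp1a (0.985), Mdh1 (0.980) and Rimklb (0.979). For Actc1 they were Prdx2 (0.979), Arpc3 (0.975) and Eif3e (0.970), and for Acta2 Psma6 (0.954), Mdh1 (0.951) and Smarcd1 (0.946). Actg2 stood apart, with Gm49383 (0.856), Slc22a27 (0.834) and Sri (0.792), and with r of 0.218 to 0.608 to the other members.

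Genes of proteins that bind actin were also called, with a list-wise count set beside that of all genes. Called in at least 5 of 10 WT livers with Pio were 12.9% of all genes, and in at least 10 of 20 KO livers 27.1%. Among genes of monomer-binding proteins, 7 of 8 were called in WT with Pio and 8 of 8 in KO, of the Arp2/3 complex (which nucleates branched filaments) 7 of 8 and 8 of 8, and of tropomyosins and non-muscle myosins 8 of 10 in both. Capping and severing proteins had 5 and 3 of 6, crosslinking proteins 3 and 6 of 8, and actin-related proteins 1 and 4 of 6. The median fold enrichment of Cfl1 was 14.3 in WT with Pio and 33.5 in KO, and of Tmsb4x, which encodes the monomer-sequestering thymosin β4, 9.80 and 40.1. Arpc2 gave 12.2 and 9.16, and Myl9, a regulatory light chain of smooth muscle and non-muscle myosin, 13.03 and 4.46.

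Other muscle markers were called to differing extents. Of the smooth muscle markers 3 of 8 were called in at least 5 WT livers with Pio and 1 of 8 in at least 10 KO livers, with Tagln (transgelin, an actin-binding protein of smooth muscle) in 7 WT livers at a median of 8.42 and 20 KO livers at 6.09. None of the 10 skeletal markers was called so in either, and Myh4, the most frequent, was called in 2 WT livers with Pio and 1 KO liver. Of the 7 cardiac markers only Ryr2 was, in 8 WT livers with Pio, but also in 7 untreated WT livers. Stellate cell and fibroblast markers had 4 and 3 of 7, with Col1a1 in 7 and 18 livers and Col1a2 in 6 and 19.

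Markers of cells that liver should hold few of were called too, and those of hepatocytes mostly were not. In KO livers 8 of 8 neuronal markers were called in at least 10 livers against 4 of 8 in WT with Pio, and the tubulin gene Tubb3 had a median of 44.6 in 20 KO livers and 6.01 in 9 WT livers. Intestinal markers had 4 of 6 in WT with Pio and 0 of 6 in KO, with Cdh17 in 7 and 1 livers. Of 7 hepatocyte markers in the annotation 0 and 1 were called, the latter being Ttr (transthyretin) in 20 KO livers at 20.4, while Apob, Fgb and Apoc3 had no interval in any liver. The part of other cell types in the actin values was not tested.

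**Figure D4:**
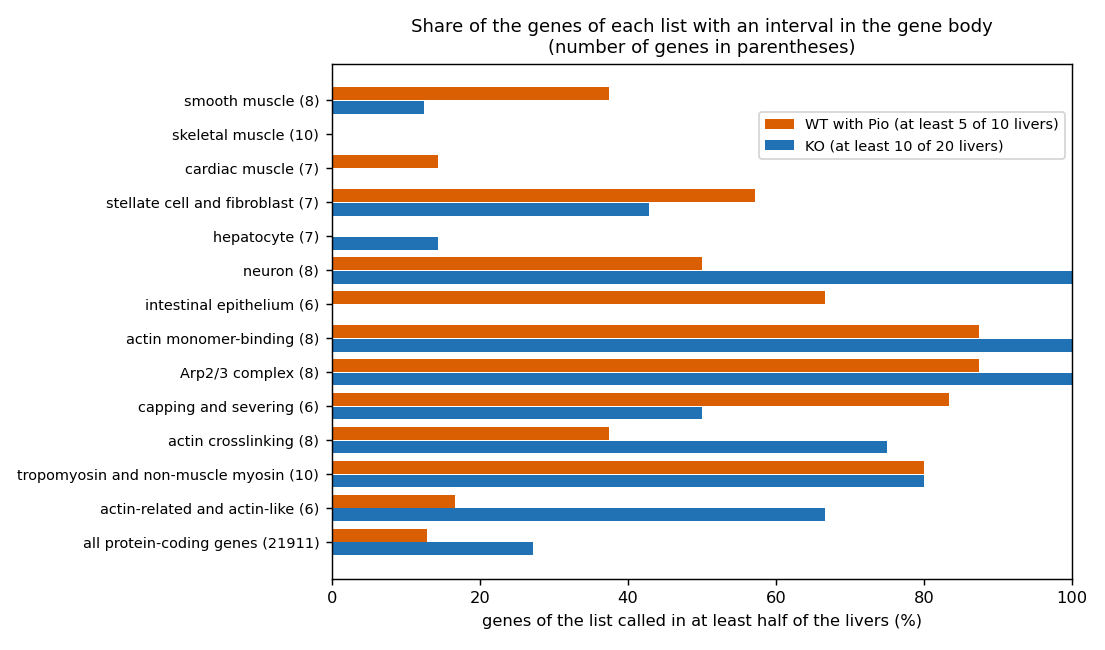
Percentage of the genes of each list with an interval in at least 5 of 10 WT livers with Pio (orange) and at least 10 of 20 KO livers (blue), with the number of genes in parentheses. In KO the actin monomer-binding and Arp2/3 lists reach 8 of 8 and the capping and severing list 3 of 6, skeletal muscle markers have 0 of 10, and all genes 12.9% and 27.1%.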

How the data were processed

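RXR ChIP-Seq peak tables of 40 livers were analysed, with groups taken from the sample titles. The authors used Novoalign to place single reads on mm10, then MACS2 (version 2.1.1.20160309) to find peaks and their summits in each ChIP library relative to its input. Per the file headers the cutoff was p 0.001 in WT and q 0.05 in KO libraries. The deposited values used were the fold enrichment (a ratio), the pileup (the signal at the summit), and the -log10 p and -log10 q. Peak lists hold no reads, so no counting interval or floor was computed, and the read-level test of the authors was not repeated here.

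Summit rows of 1 interval were joined. Genes and exons came from GENCODE M21 (GRCm38.p6), whose chromosome lengths held every peak. Each gene's value in a liver was the largest fold enrichment of any interval overlapping its body. Contrasts within KO, and WT HFD-Pio against WT Pio, used limma 3.58.1 (R 4.3.3) with a trend, tested on simulated data. Each liver was that of 1 mouse, and livers were not paired. Copies were searched with Python 3.11.15, numpy 2.4.6, pandas 2.3.3, pyranges 0.1.4 and numba 0.67.0, and figures drawn with matplotlib 3.10.9.

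The members, gene lists and tests were chosen with earlier results of these data known. All members were named, with the 3 genes most like each by Pearson's r and, from each list, the up to 4 genes called in most livers. Some items that these rules name are not reported here. The alternatives tried were other thresholds on peaks, exon rules, centring, gene filters, lists of equal length, a replicate block and leaving out livers.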

Additional observations from a re-analysis of the deposited data

How the results depend on the processing

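Peak lists give presence and strength but no reads, and a gene without an interval may lie just under a cutoff that differs between genotypes and with depth. With q of at most 0.05 in every library the same members were gained, and Acta2 was called in 8 instead of 10 WT livers with Pio. At -log10 q of at least 5, Actb was called in 10 WT livers with Pio and 20 KO livers, Actg1 in 8 and 12, Acta1 in 9 and 20, Actc1 in 6 and 19, Acta2 in 7 and 18 and Actg2 in 7 and 1. At a fold enrichment of at least 5 the numbers were 7 and 20, 10 and 15, 8 and 20, 6 and 20, 8 and 20, and 9 and 0.

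Members gained in WT Pio numbered 3 to 6 over these alternatives and 5 or 6 in WT HFD-Pio. The count of all genes gained moved more, and the cause was not tested. In WT Pio against WT Control it was 857 at -log10 q of at least 5, 924 at a fold enrichment of at least 5, 1062 at 4 of 5 livers, 329 with lists of equal length and 308 without the libraries of fragments under 60 bp. In WT HFD-Pio against WT HFD it was 684 at q of at most 0.05, 318 and 459 at the strength limits, 841 with the summit in an exon, 846 with at least 50% of the interval in exons, 580 at 4 of 5 livers, 186 with equal lists and 234 without the short fragments.

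Leaving out each replicate gave 1073 to 1888 genes gained in WT Pio (1073 without WT Pio replicate 3) and 633 to 1794 in WT HFD-Pio (633, 707 and 670 without HFD-Pio replicate 1, 4 or 5, each of which also removed Actc1). Members gained were 4 to 6 and 5 to 6, and 0 to 1 in KO HFD-Pio against KO Pio. Genes called by limma in KO Pio against KO Control fell from 4 to 1 at -log10 q of at least 5 and to 0 with the summit in an exon, and were 0 to 8 when replicates were left out (0 without Pio replicate 1 or 4 or Control replicate 1 or 4, 8 without Control replicate 5). In KO HFD-Pio against KO HFD and KO HFD against KO Control they were 0 to 1. No member was called in any of the 367 single-member results over all contrasts and settings (limma, lowest adjusted p 0.668).

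Small log2 changes of members turned sign. Without centring, Actb and Actc1 in KO Pio against KO Control became 0.014 and 0.0050, and Actb, Acta2 and Actg2 in WT HFD-Pio against WT Pio -0.23, -0.25 and -0.14. With genes called in 4 of 5 livers, Acta2 became 0.024 in KO HFD-Pio against KO HFD and -0.0076 in WT HFD-Pio against WT Pio. In that last contrast Actb became -0.014 at -log10 q of at least 5 and Acta1 0.14 with exonic summits. With replicates left out, KO Pio against KO Control gave -0.19 to 0.028 for Actb, -0.23 to 0.038 for Actc1 and -0.068 to 0.13 for Acta2, KO HFD against KO Control gave -0.14 to 0.21 for Acta1 and -0.23 to 0.061 for Actc1, and KO HFD-Pio against KO HFD -0.10 to 0.088 for Acta2. WT HFD-Pio against WT Pio gave -0.16 to 0.19 for Acta1, -0.10 to 0.24 for Acta2 and -0.11 to 0.30 for Actb. With a replicate block the genes called in the 5 limma contrasts were 4, 0, 0, 0 and 0, as without it, and the replicate numbers did not pair the livers (same-number correlations of -0.61 to 0.17).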
